A study of Mus musculus with 10 samples.

Results

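The genes described here were 10 interferon-induced genes of the mouse colorectum, namely Bst2, Rsad2, Mx1, Mx2, Ifitm3, Ifi27l2a, Ifi44, Rtp4, Xaf1 and Cmpk2. They were chosen by symbol, with their values in these libraries known, out of 23284 features measured by mRNA sequencing. All 10 were found, and all 10 were among the 13051 features that lay above the lower limit of the data (the floor, described below) in both libraries of at least 1 group. Because their values were known when they were chosen, the group differences that follow are a description of these genes and not a test of them.

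The libraries came from colorectum of BALB/c mice of 7 weeks, 2 libraries per group and 5 groups. The normal group was untreated and collected on day 0. The 4 other groups were given 2% dextran sodium sulfate (DSS), a sulfated polysaccharide that injures the colonic mucosa and is used to provoke colitis, and tail vein injections of a miRNA in super carbonate apatite (sCA), a nanoparticle carrier, on days 1, 2 and 3 after DSS was started. The groups named NC-miR_2d and NC-miR_4d received a negative control miRNA and were collected on day 2 and day 4, and those named 29a_4d and 29b_4d received miR-29a or miR-29b and were collected on day 4. The label of the NC-miR_2d group gives the same injection days although collection was on day 2, and the names recorded for the NC-miR libraries leave unclear which part is the day, so the day given to each NC-miR value is that of the sample titles. No group had DSS without injections or injections without DSS, so DSS, carrier, control miRNA and day of collection cannot be told apart in any comparison with normal mice. Nothing in the labels says that the libraries of a group came from separate animals, and p-values measure only the spread between these libraries.

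The deposited values are on a log2 scale relative to a baseline for each gene, so a value can be compared between libraries but the level of one gene cannot be compared with that of another. Values below are log2 differences from the mean of both normal libraries. The lowest value of a feature was taken as its floor where 2 or more libraries shared it, and between 12679 and 12940 features per library lay above their floor. The files hold no read counts, so the depth behind a value is unknown. Of 9 tested markers of colonic epithelium (10 listed, Muc2 not found under that symbol), Slc26a3 was called higher than normal in both miR-29 groups and Car1 in 29b_4d, and none was called in the other comparisons described below. The mean of these markers lay between -0.13 and 0.78 in the 10 libraries.

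Interferons are secreted proteins, and cells release those of type I and type III on sensing viral or misplaced nucleic acid. Type I and type III interferons signal through JAK kinases to STAT and IRF transcription factors that bind a promoter element called the ISRE, and interferon gamma acts through a second element called GAS. The genes switched on in this way include restriction factors, proteins that block single steps of a viral life cycle, and many small proteins whose mode of action is less well known. In the gut, epithelial and immune cells both respond to interferons. A bulk library holds RNA of all of them, so more cells of a type and more RNA per cell cannot be told apart.

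The promoters of 3 of the genes are printed because they hold a core ISRE, the letters GAAANNGAAA on either strand, within the window from 250 bases before to 50 bases after the RefSeq start (GRCm38.p6). The sequences run 5′ to 3′ on the strand of the gene, and the capitals mark the core matches, which overlap one another in Bst2 and lie on the other strand in Rsad2.
Bst2, chr8:71537423-71537722, minus strand: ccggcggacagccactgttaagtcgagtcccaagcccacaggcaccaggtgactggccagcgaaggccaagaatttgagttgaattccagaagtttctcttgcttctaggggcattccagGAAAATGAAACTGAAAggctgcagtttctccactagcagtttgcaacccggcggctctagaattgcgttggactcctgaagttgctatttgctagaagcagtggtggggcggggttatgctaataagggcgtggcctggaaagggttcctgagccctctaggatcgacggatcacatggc
Ifitm3, chr7:141010695-141010994, minus strand: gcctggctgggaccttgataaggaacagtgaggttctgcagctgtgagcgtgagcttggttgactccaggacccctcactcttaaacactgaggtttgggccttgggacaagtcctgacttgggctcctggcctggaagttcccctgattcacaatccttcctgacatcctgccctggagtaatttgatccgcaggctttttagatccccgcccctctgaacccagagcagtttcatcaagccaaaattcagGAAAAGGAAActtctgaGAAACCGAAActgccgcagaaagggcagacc
Rsad2, chr12:26456403-26456702, minus strand: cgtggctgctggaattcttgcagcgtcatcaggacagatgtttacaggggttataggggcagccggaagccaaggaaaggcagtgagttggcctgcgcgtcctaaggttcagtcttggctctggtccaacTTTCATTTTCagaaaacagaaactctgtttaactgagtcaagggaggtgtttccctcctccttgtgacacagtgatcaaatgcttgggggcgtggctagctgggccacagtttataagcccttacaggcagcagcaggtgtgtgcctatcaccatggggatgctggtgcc
In Bst2 the matches begin 130 and 124 bases before the start. In Ifitm3 they begin 2 and 19 bases after it. In Rsad2 the single match begins 120 bases before it. Windows were given for 6 of the 10 genes, and those of Cmpk2, Ifi44 and Xaf1 had no such match. Over all 32851 mouse windows of this length, 3.44% held the core. A GAS element, TTCNNNGAA, lay 136 bases before the start in Bst2 and 13 bases after it in Ifitm3, in both cases overlapping an ISRE core match, and 8.30% of all windows held one. These matches are letters in a window, and no binding was measured here.

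The 2 miRNAs under study are printed because they share their seed (bases 2 to 8, in capitals), the part that pairs with target mRNAs. The sequences are the mature forms of RefSeq, while the chemistry of the injected molecules was not given in the sources used here.
mmu-miR-29a-3p: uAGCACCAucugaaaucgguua
mmu-miR-29b-3p: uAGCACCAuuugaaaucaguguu
A match to this seed, TGGTGCT, was found in the longest annotated 3′ UTR of 1 of the 10 genes (Rsad2), against 16.5% of 11618 tested features with an annotated 3′ UTR. The median length of these UTRs was 1108.5 bases in the 10 genes and 1307 bases in the tested features.

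Several of the genes are neighbours in the genome (GRCm38, GENCODE M21). Rsad2 (chromosome 12, 26442746 to 26456452, minus strand) and Cmpk2 (chromosome 12, 26469204 to 26479837, plus strand) lie head to head, 12751 bases apart with no gene between them. Mx1 (chromosome 16, 97447035 to 97462907) and Mx2 (chromosome 16, 97535308 to 97560900) lie 72400 bases apart on opposite strands. Both Mx genes are transcribed pseudogenes in the RefSeq annotation of the reference strain, and Mx2 is a polymorphic pseudogene in GENCODE. Many inbred laboratory strains, BALB/c among them, carry a deletion in Mx1, so its transcript is not a measure of working Mx1 protein. Bst2 lies on chromosome 8 (71534255 to 71537456), Ifitm3 on chromosome 7 (141009586 to 141010770), Ifi44 on chromosome 3 (151730922 to 151749960), Xaf1 on chromosome 11 (72301629 to 72313733) and Ifi27l2a on chromosome 12 (103442167 to 103443680). Rtp4 (chromosome 16, 23520291 to 23614222) overlaps Gm45338 on its own strand and Masp1 on the other. Reads of Mx1 and Mx2, of Ifitm3 and its paralogs, and of Ifi27l2a and Ifi27l2b could be shared between similar copies, which leaves those values uncertain.

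Bst2 and Ifitm3 encode membrane proteins that act at the cell's boundary. Bst2 (tetherin) holds budding virus particles at the cell surface. Its values were -0.11 and 0.11 in the normal libraries, 3.02 and 2.60 in NC-miR_2d, 1.14 and 0.78 in NC-miR_4d, 0.63 and 0.64 in 29a_4d, and 0.65 and 1.35 in 29b_4d. Every treated library lay above both normals, the day 2 libraries lay above all others, and the 29b_4d libraries spanned those of NC-miR_4d. Ifitm3 blocks fusion of viruses in endosomes, and its values were 0.01 and -0.01 in normal, 2.11 and 1.56 in NC-miR_2d, 0.76 and 0.36 in NC-miR_4d, 0.36 and 0.35 in 29a_4d, and 0.64 and 1.08 in 29b_4d. It had the smallest day 2 difference of the 10 genes, 3.56-fold (log2 1.83 ± 0.23, limma standard error, n = 2 per group), against 7.01-fold for Bst2 (log2 2.81 ± 0.25). Both genes were higher on average in 29b_4d than in NC-miR_4d, by 0.04 ± 0.25 for Bst2 and 0.31 ± 0.23 for Ifitm3, with overlapping libraries in both cases.

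Rsad2 and Cmpk2 encode enzymes that work on nucleotides. Rsad2 (viperin) makes a chain-terminating nucleotide from CTP, and Cmpk2 is a mitochondrial kinase that supplies CTP and related nucleotides. Rsad2 values were 0.53 and -0.53 in normal, 5.24 and 2.76 in NC-miR_2d, 1.89 and 0.90 in NC-miR_4d, 0.18 and 1.05 in 29a_4d, and 0.76 and 1.28 in 29b_4d. The normal libraries of Rsad2 were 2.08-fold apart, the widest gap of the 10 genes in that group, and 29a_4d overlapped them. Cmpk2 values were 0.17 and -0.17 in normal, 4.80 and 2.60 in NC-miR_2d, 1.60 and 1.13 in NC-miR_4d, 0.49 and 0.77 in 29a_4d, and 1.03 and 1.34 in 29b_4d. The day 2 mean difference was 16.0-fold for Rsad2 (log2 4.00 ± 0.76) and 13.0-fold for Cmpk2 (log2 3.70 ± 0.58). In both genes replicate 1 of NC-miR_2d carried much of that mean, at 37.7-fold over normal for Rsad2 and 27.8-fold for Cmpk2, against 6.79-fold and 6.07-fold in replicate 2.

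Mx1, Mx2 and Ifi44 make up a group of proteins with, or related to, GTPase domains. Mx proteins are dynamin-like GTPases that trap viral nucleocapsids, and Ifi44 is a cytoplasmic protein with a predicted GTP-binding domain. Mx1 values were -0.02 and 0.02 in normal, 4.98 and 0.93 in NC-miR_2d, 1.30 and -0.08 in NC-miR_4d, 0.09 and -0.04 in 29a_4d, and 1.14 and 0.70 in 29b_4d. This was the least even of the 10 genes, since 1 day 2 library was 31.6-fold over normal and the other 1.91-fold, and NC-miR_4d overlapped normal. Without NC-miR_4d replicate 1, the day 4 difference of Mx1 from normal changed from 0.61 ± 1.06 to -0.08. Mx2 lay at the floor in normal replicate 2 and 29a_4d replicate 2, so its differences from normal are not exact. Its values were 0.01 and -0.01 in normal, 5.35 and 2.54 in NC-miR_2d, 1.68 and 0.56 in NC-miR_4d, 0.06 and -0.03 in 29a_4d, and 0.21 and 0.84 in 29b_4d. The 29a_4d libraries therefore overlapped the normal libraries for both Mx genes, while the 29b_4d libraries lay above them.

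Ifi44 was at its floor in normal replicates 1 and 2, so the difference of each treated library from normal is a lower bound. It was at least 77.8-fold and 18.2-fold above normal in the NC-miR_2d libraries, 15.3-fold and 7.01-fold in NC-miR_4d, 3.05-fold and 2.75-fold in 29a_4d, and 3.82-fold and 8.25-fold in 29b_4d. With the normal libraries taken at the floor, the fitted day 2 difference was log2 5.23 ± 0.66, the largest of the 10 genes, and 4.18 without NC-miR_2d replicate 1. All 8 treated libraries were above the floor, with both 29a_4d libraries below every other treated library.

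Ifi27l2a, Xaf1 and Rtp4 were the genes called on day 4 as well as on day 2 (below). Ifi27l2a is a small hydrophobic protein of the ISG12 family, and its values were -0.02 and 0.02 in normal, 3.65 and 3.53 in NC-miR_2d, 2.95 and 2.09 in NC-miR_4d, 1.62 and 1.82 in 29a_4d, and 2.22 and 3.14 in 29b_4d. On day 4 it lay 3.29-fold above normal with miR-29a (log2 1.72 ± 0.33) and 6.41-fold with miR-29b (log2 2.68 ± 0.33). Xaf1, a zinc-finger protein known for binding the apoptosis inhibitor XIAP, had 0.16 and -0.16 in normal, 3.98 and 3.10 in NC-miR_2d, 2.26 and 1.86 in NC-miR_4d, 1.14 and 1.39 in 29a_4d, and 1.32 and 1.86 in 29b_4d. Rtp4 belongs to a family of chaperones that carry receptors to the cell surface. Its values were 0.03 and -0.03 in normal, 4.29 and 3.23 in NC-miR_2d, 2.77 and 2.46 in NC-miR_4d, 1.23 and 1.64 in 29a_4d, and 1.41 and 2.24 in 29b_4d. Rtp4 was the only gene of the 10 with both 29a_4d and both 29b_4d libraries below both NC-miR_4d libraries.

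**Figure D1:**
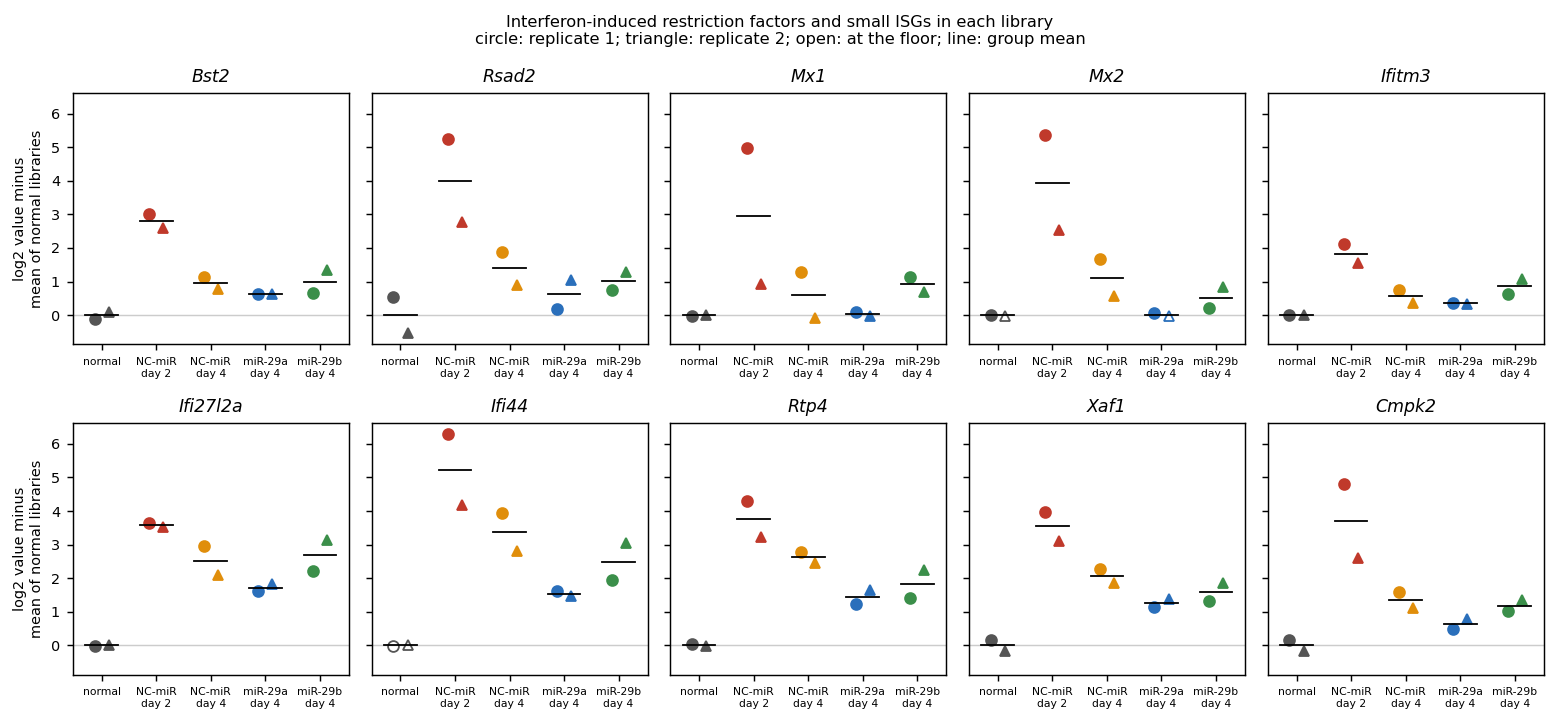
Log2 value minus the mean of the normal libraries (vertical axis) for each of the 10 genes in the 5 groups, with replicate 1 as circles, replicate 2 as triangles, open symbols for values at the floor and lines for group means. The NC-miR_2d mean is the highest of the 5 groups in all 10 panels, and the gap between its libraries is widest for Mx1 (4.98 against 0.93).

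The order of the group means was shared in part. NC-miR_2d was the highest group and normal the lowest for all 10 genes, and 29a_4d was the lowest treated group for all 10. Between them, NC-miR_4d was above 29b_4d for 6 genes (Rsad2, Mx2, Ifi44, Rtp4, Xaf1 and Cmpk2) and below it for 4 (Bst2, Mx1, Ifitm3 and Ifi27l2a). The libraries of these middle groups overlapped for 9 of the 10 genes, the exception being Rtp4. Without NC-miR_4d replicate 1, 29a_4d lay above NC-miR_4d for Mx1 (by 0.11) and differed from it by -0.0009 for Ifitm3. The share of all tested features with this order of groups was not computed.

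On day 2 with NC-miR, all 10 genes were higher than in normal mice, with fitted differences from log2 1.83 (Ifitm3) to 5.23 (Ifi44, its normal libraries taken at the floor) and a median of 3.65, a 12.5-fold difference, against a median of -0.06 over all features tested. limma, fitted to all 10 libraries and adjusted by Benjamini-Hochberg over the 13051 features, called 7 of the 10 at an adjusted p under 0.05 (Bst2, Ifitm3, Ifi27l2a, Ifi44, Rtp4, Xaf1 and Cmpk2). Over all features 1.22% were called, and 1.07% were called as higher. The genes not called were Rsad2, Mx1 and Mx2, whose differences of 4.00, 2.96 and 3.95 had standard errors of 0.76, 1.06 and 0.77. All 10 had no overlap between the day 2 and normal libraries, as 18.6% of all features did in that direction. With no filter on low values 2 of the 10 were called (28 features in all), and 3 in the fit to the 4 libraries compared (26 features in all). The number called fell without normal replicate 2 and rose without NC-miR_2d replicate 2, among the 10 genes and among all features alike. Bst2 and Xaf1 kept their calls whichever of the 10 libraries was left out. The median difference was 2.68 without NC-miR_2d replicate 1 and 4.54 without replicate 2.

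On day 4 with NC-miR, the 10 genes were again all higher on average than in normal mice, by a median of 1.38 (2.60-fold), from 0.56 ± 0.23 for Ifitm3 to 3.37 ± 0.66 for Ifi44, which was 2.81 without NC-miR_4d replicate 1. Ifi27l2a (2.52 ± 0.33), Rtp4 (2.62 ± 0.37) and Xaf1 (2.06 ± 0.31) were called by limma, 3 of 10, against 0.383% of all features (0.268% as higher). With no filter on low values 0 of the 10 were called (22 features in all). In the fit to the 4 libraries compared it was 1 (20 features in all), and with the replicate number as a block 0 (30 features in all). For 9 genes, all but Mx1, the groups did not overlap, as for 20.4% of all features in that direction. The 3 calls were lost without normal replicate 1, normal replicate 2, NC-miR_4d replicate 1 or either 29a_4d library. Rtp4 and Xaf1 also lost theirs without NC-miR_4d replicate 2. The number called fell without normal replicate 2 and rose without NC-miR_2d replicate 2, among the 10 genes and among all features alike. Squamous epithelium markers stood out in NC-miR_4d replicate 1, with a mean of 5.17 over the 3 tested of 9 listed, against -0.14 in replicate 2 and between -0.16 and 0.52 in the other libraries. Krt4, Trp63, Dsg3 and Sprr3 of that list were at the floor in all libraries. NC-miR_4d replicate 1 was also the higher replicate for all 10 interferon-induced genes, and the part of this tissue difference in their values was not tested.

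Between day 2 and day 4 of NC-miR, all 10 genes were lower on day 4, by a median of 1.85 on the log2 scale (3.62-fold), from -1.07 ± 0.33 for Ifi27l2a to -2.83 ± 0.77 for Mx2. None of the 10 was called by limma, and 0.0153% of all features were, while 837 features and 9 of the 10 genes had an unadjusted p under 0.05. All but Mx1 had no overlap between the days, as 16.1% of all features did in that direction. Ifi27l2a went from 12.1-fold on day 2 to 5.73-fold on day 4 and Rtp4 from 13.5-fold to 6.14-fold, Cmpk2 went from 13.0-fold to 2.57-fold and Mx2 from 15.4-fold to 2.17-fold. NC-miR_2d replicate 1 raised these day 2 values to different degrees. Without it they were 11.6-fold for Ifi27l2a, 9.35-fold for Rtp4, 6.07-fold for Cmpk2 and 5.81-fold for Mx2. Differences between genes were not tested. The median difference of the 10 genes was -2.48 without NC-miR_2d replicate 2 and -1.03 without NC-miR_2d replicate 1.

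**Figure D2:**
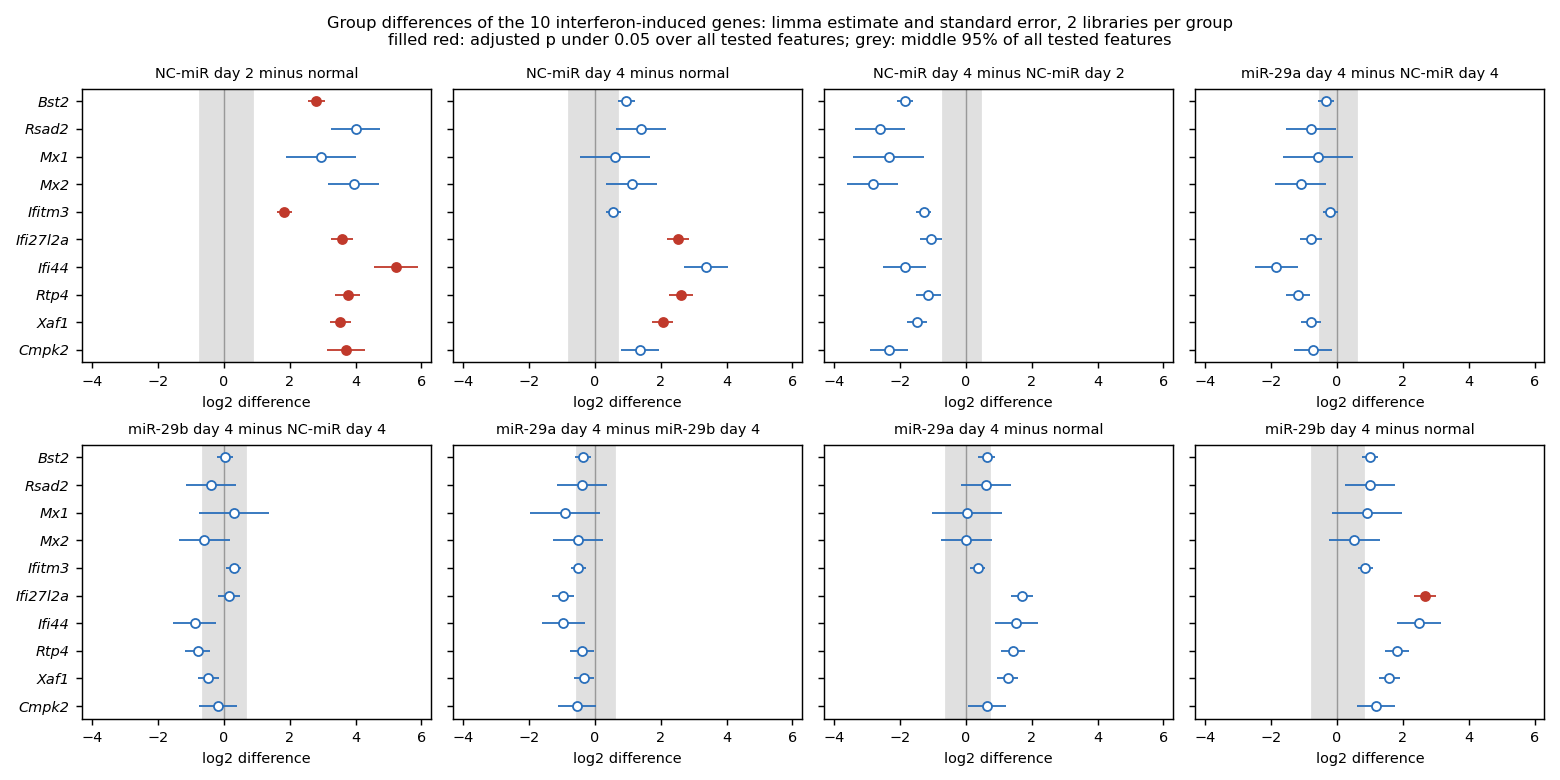
Group differences of the 10 genes in the 8 comparisons, as log2 differences from limma with standard errors (horizontal axis), filled where called at an adjusted p under 0.05 over all tested features. The grey band holds the middle 95% of all tested features, and in the day 2 comparison with normal all 10 genes lie to its right.

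With miR-29a, all 10 genes were lower on day 4 than with the control miRNA, by a median of 0.78 on the log2 scale (1.72-fold), against a median of 0.02 over all features. Ifi44 had the largest difference (-1.84 ± 0.66), followed by Rtp4 (-1.18 ± 0.37), Mx2 (-1.10 ± 0.77), Ifi27l2a (-0.80 ± 0.33) and Xaf1 (-0.79 ± 0.31). Ifitm3 had the smallest (-0.20 ± 0.23). None of the 10 was called by limma, which called 0% of all features in this comparison, and 996 features and 4 of the 10 genes had an unadjusted p under 0.05. For 7 genes the libraries did not overlap (all but Rsad2, Mx1 and Ifitm3), as for 19.3% of all features in that direction. The median was -0.43 without NC-miR_4d replicate 1, the library with the squamous markers, where Mx1 turned to 0.11 and Ifitm3 was at -0.0009, and -1.25 without NC-miR_4d replicate 2.

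With miR-29b, the genes lay on both sides of the control miRNA on day 4. The values were -0.88 ± 0.66 for Ifi44, -0.79 ± 0.37 for Rtp4, -0.59 ± 0.77 for Mx2 and -0.46 ± 0.31 for Xaf1, and 0.31 ± 0.23 for Ifitm3 and 0.31 ± 1.06 for Mx1. The median over the 10 genes was -0.28, with 8 of the 10 inside the middle 95% of all features, and 0.09 without NC-miR_4d replicate 1. The direction turned without a single library for 5 genes, namely Rsad2 (0.12) and Cmpk2 (0.06) without NC-miR_4d replicate 1, Mx1 (-0.38) without NC-miR_4d replicate 2, and Bst2 and Ifi27l2a without NC-miR_4d replicate 2 (-0.14 and -0.27) or 29b_4d replicate 2 (-0.31 and -0.30). limma called none of the 10 and 0% of all features, with 1627 features and 0 of the 10 genes at an unadjusted p under 0.05. Rtp4 alone had no overlap between the groups, in the lower direction, as had 19.5% of all features.

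The 2 miR-29 groups were compared with each other at the same day and injection schedule, 1 pair of related molecules. All 10 genes were lower with miR-29a than with miR-29b, by a median of 0.51 on the log2 scale (1.42-fold). Of all tested features 48.2% were lower, and 6 of the 10 genes lay inside the middle 95% of all features. Ifi27l2a at -0.96 ± 0.33, Ifi44 at -0.96 ± 0.66 and Mx1 at -0.90 ± 1.06 had the largest differences and Xaf1 at -0.33 ± 0.31 the smallest. limma called 0% of all features and none of the 10, with 970 features and 1 of the 10 genes at an unadjusted p under 0.05. In 7 genes (all but Rsad2, Rtp4 and Xaf1) the libraries did not overlap, as in 19.7% of all features in that direction. The median was -0.24 without 29b_4d replicate 2, which was the higher 29b_4d library for 9 of the 10 genes, and Rtp4 then turned to 0.02. Rsad2 turned to 0.03 without 29a_4d replicate 1. The 95% intervals, not adjusted for the number of genes, ran from -1.73 to -0.20 for Ifi27l2a, from -0.94 to 0.20 for Bst2 and from -3.34 to 1.55 for Mx1. A difference that was not called does not show that the molecules act alike.

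Set against normal mice, the 10 genes were higher on average in both miR-29 groups, by a median of 0.63 with miR-29a (1.55-fold) and 1.10 with miR-29b (2.14-fold). Of the 10 differences, 6 with miR-29a and 1 with miR-29b lay inside the middle 95% of all features. In 29a_4d none of the 10 was called by limma (0.421% of all features, 0.345% as higher, with 5 of the 10 and 1434 features at an unadjusted p under 0.05), and Mx1 (0.03 ± 1.06), Mx2 (0.01 ± 0.77) and Rsad2 (0.62 ± 0.76) overlapped normal. Without 29a_4d replicate 1, Mx1 and Mx2 turned to -0.04 and -0.03. In the fit to the 4 libraries compared 2 of the 10 were called, and 24 features in all. The other 7 had no overlap, as had 21% of all features in that direction. In 29b_4d all 10 had no overlap with normal, as had 21.3% of all features, and limma called Ifi27l2a alone (0.49% of all features, 0.337% as higher). Ifi27l2a was not called with no filter on low values, in the fit to the 4 libraries compared, or without normal replicate 1, normal replicate 2 or 29b_4d replicate 2. These comparisons share their normal or control libraries and are given side by side only.

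For the 10 genes, the replicates of a group differed most on day 2. In NC-miR_2d, replicate 1 was higher than replicate 2 for all 10 genes, by a median of 2.99-fold, with Mx1 16.5-fold, Mx2 7.04-fold, Rsad2 5.56-fold, Cmpk2 4.58-fold and Ifi44 4.29-fold apart. By contrast Ifi27l2a (1.08-fold), Bst2 (1.34-fold) and Ifitm3 (1.46-fold) were closer together in these libraries. Over all tested features the NC-miR_2d libraries were not the furthest apart. The median size of the gap was 0.18 on the log2 scale in NC-miR_2d, 0.18 in normal, 0.20 in NC-miR_4d, 0.15 in 29a_4d and 0.22 in 29b_4d. In NC-miR_4d replicate 1 was again the higher for all 10, by a median of 1.59-fold. In 29b_4d replicate 2 was the higher for 9 genes, by a median of 1.50-fold, the exception being Mx1, while 29a_4d and normal were mixed in direction, with a median size of the gap of 0.17 and 0.05 on the log2 scale. Among all tested features ranked by their rise over normal in NC-miR_2d replicate 1, Ifi44 was at rank 5, Mx2 at 11, Rsad2 at 12, Mx1 at 19 and Cmpk2 at 22, whereas in replicate 2 Mx1 was at rank 254.

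**Figure D3:**
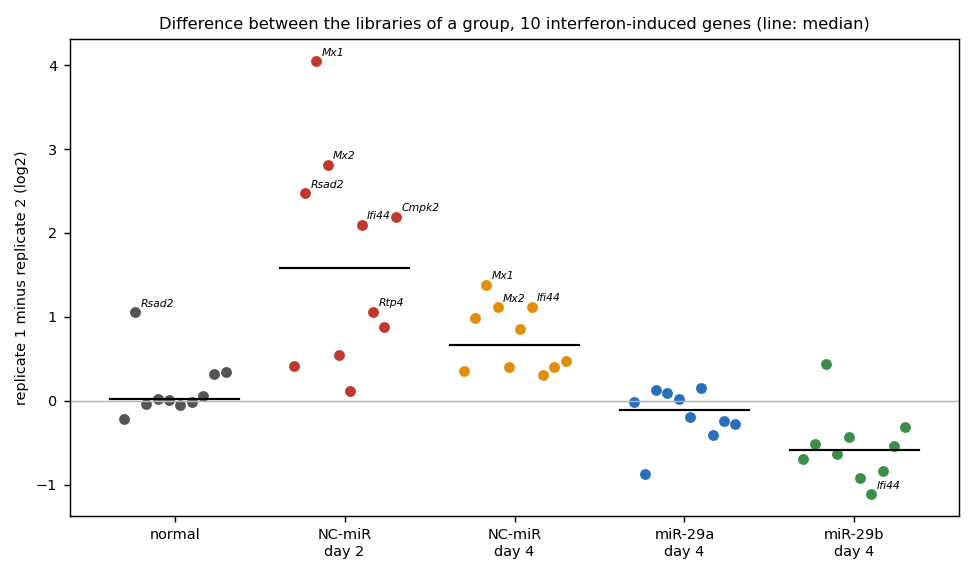
Replicate 1 minus replicate 2 on the log2 scale (vertical axis) for each of the 10 genes in each group, with the median as a line. All 10 points lie above 0 in NC-miR_2d and NC-miR_4d, and 9 of 10 lie below 0 in 29b_4d.

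Markers of immune cells differed between the same libraries. The mean of the 3 tested neutrophil markers of 5 listed was 3.24 in NC-miR_2d replicate 1 and 0.71 in replicate 2, and between -0.07 and 1.67 in the other libraries, while Csf3r and Cxcr2 were at the floor in all 10. The mean of 8 B and plasma cell markers was -0.95 in NC-miR_2d replicate 2, further below normal in replicate 1, and between -1.75 and -0.60 in the other treated libraries. Markers of plasmacytoid dendritic cells, a cell type known for making type I interferon, had means of -0.34 and 0.12 in NC-miR_2d (5 tested of 8 listed, with Ccr9 and Pacsin1 at the floor in all libraries). Macrophage and monocyte markers lay between -0.18 and 0.42 over all libraries, and Ptprc, the pan-leukocyte gene, between -0.60 and 0.24. No marker of these 4 lists was called by limma between NC-miR_2d and normal. Their part in the values of the 10 interferon-induced genes was not tested, and since values are relative to each gene's own baseline the levels of a list could not be summed.

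Around the 10 genes, the interferon pathway was read by role, from lists written with earlier results of these data known. None of 19 interferon genes found in the files (23 listed), Ifnb1 and Ifng included, rose above the floor in any library, which leaves their transcripts below what these values show. Of 9 receptor and kinase genes tested, none was called on day 2 against normal (median 0.10), with Ifnar1 at -0.21 ± 0.13 and Ifnar2 at 0.44 ± 0.20. Of 10 STAT and IRF genes, 8 were higher on day 2 and 4 were called, among them Irf7 (2.97 ± 0.29) and Irf9 (2.30 ± 0.25). Factors of these families are known to switch on interferon-induced genes, and of the list Irf7 alone was called on day 4 (1.88 ± 0.29). Of 12 tested nucleic acid sensor and adaptor genes, 11 were higher on day 2. The 4 called included Zbp1 (3.42 ± 0.35) and Dhx58 (2.34 ± 0.37), and 0 were called on day 4. Of 8 feedback regulators, 6 were higher on day 2. Isg15 (5.10 ± 0.45) and Usp18 (4.59 ± 0.62), which removes Isg15 from proteins, were called on day 2, and Isg15 also on day 4. Of 23 other restriction factors, 22 were higher on day 2, with a list median of 1.04. The 10 called included Ifit1 (5.82 ± 0.62) and Herc6 (3.01 ± 0.27), and Herc6 alone was called on day 4. Over all tested features, 41.2% were higher on day 2, and 1.07% were called as higher on day 2 and 0.268% on day 4. None of these lists had a gene called as lower in either comparison, and 20 of the 13051 features were called as lower on day 2. Between a miR-29 group and NC-miR_4d no list could hold a call, since 0% of all features were called there. The counts of called genes rest on single libraries. Without normal replicate 1 or 2, fewer genes were called on day 2 in each list that held calls. Over all features, too, fewer were called without normal replicate 2. Without NC-miR_2d replicate 1 fewer sensors and other restriction factors were called, and without either 29b_4d library fewer sensors. More feedback regulators were called without NC-miR_2d replicate 2, as were more of all features. On day 4 none of the genes of these lists was called without normal replicate 1 or 2, either NC-miR_4d library or either 29a_4d library, and Herc6 also lost its call without either 29b_4d library. Without either NC-miR_2d library more STAT and IRF genes, sensors, feedback regulators and other restriction factors were called on day 4. Over all features, too, more were called on day 4 without NC-miR_2d replicate 2.

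Close relatives of the 10 genes did not all move with them. Of 10 tested family members (16 found of 18 listed), Ifi27l2b, the neighbour of Ifi27l2a, was called on day 2 (2.29 ± 0.28), a call lost without either normal library or without NC-miR_2d replicate 1. The Ifitm3 paralogs Ifitm1 (0.66 ± 0.29), Ifitm2 (0.18 ± 0.13) and Ifitm6 (0.65 ± 0.46) were not called, nor were Ifi27l1 (0.47 ± 0.20), the Xaf1 partner Xiap (0.33 ± 0.18) and the dynamins Dnm1 (-0.44 ± 0.27) and Dnm2 (0.17 ± 0.14). Rtp1, Rtp2, Rtp3, Ifitm7 and Dnm3 were at the floor in all libraries. The difference between each of the 10 genes and its relatives was not itself tested.

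**Figure D4:**
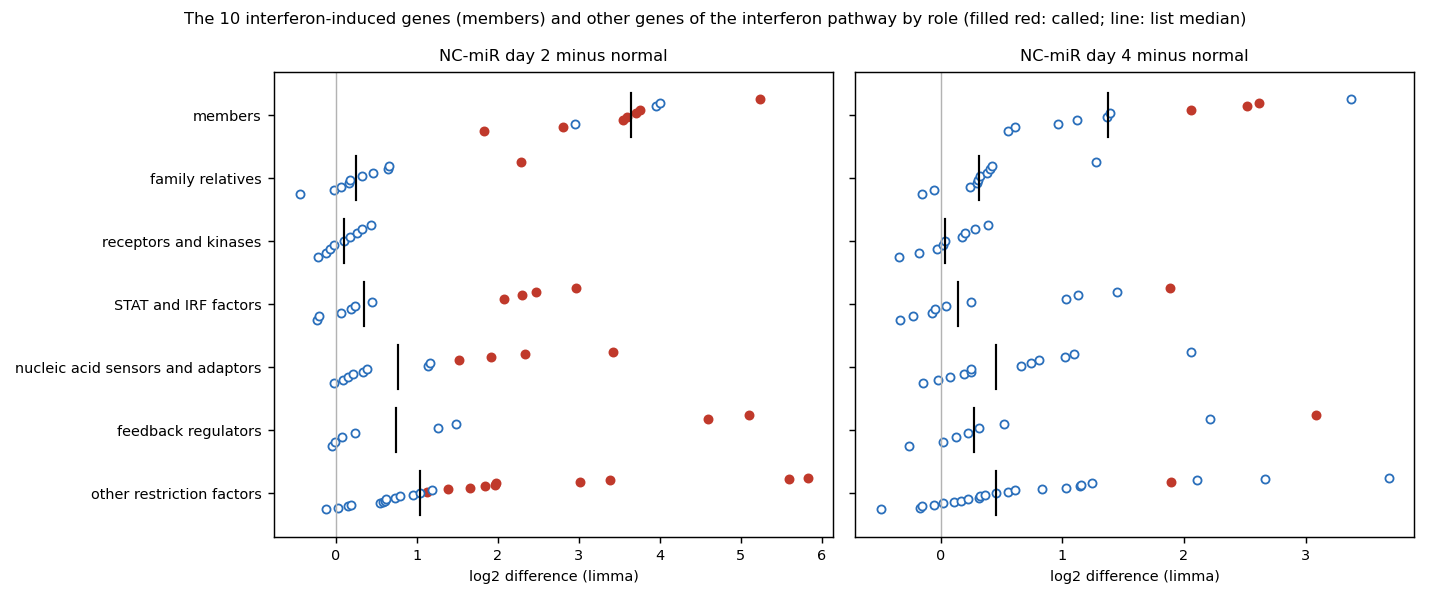
Log2 differences from normal (horizontal axis) on day 2 and day 4 with NC-miR for the 10 genes (members) and the other genes of the pathway by role, filled where called by limma, with a line at each list's median. On day 2 the list medians range from 0.10 for receptors and kinases to 3.65 for the 10 genes.

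Among themselves, the 10 genes followed one profile to different degrees. The root mean square distance of a gene from the mean of the other 9, over the 10 libraries and with each gene centred on its own mean, was smallest for Cmpk2 (0.25) and Xaf1 (0.30) and largest for Mx1 (0.77) and Ifi44 (0.75). By the same measure against the mean of all 10, the nearest other features were D14Ertd668e (0.22), Gbp3 (0.22), Gbp6 (0.26), Igtp (0.27), Gm5431 (0.30), Trim30a (0.33), Oas1b (0.34), Irgm2 (0.36), Gm4902 (0.36) and Iigp1 (0.37). Gbp3, Gbp6, Igtp, Irgm2 and Iigp1 encode interferon-inducible GTPases. Their values were a mean day 2 difference from normal of 3.34 for Gbp3 and 4.01 for Iigp1, and 1.40 and 1.76 on day 4. The points of each profile share libraries, so likeness here describes these 10 libraries only.

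**Figure D5:**
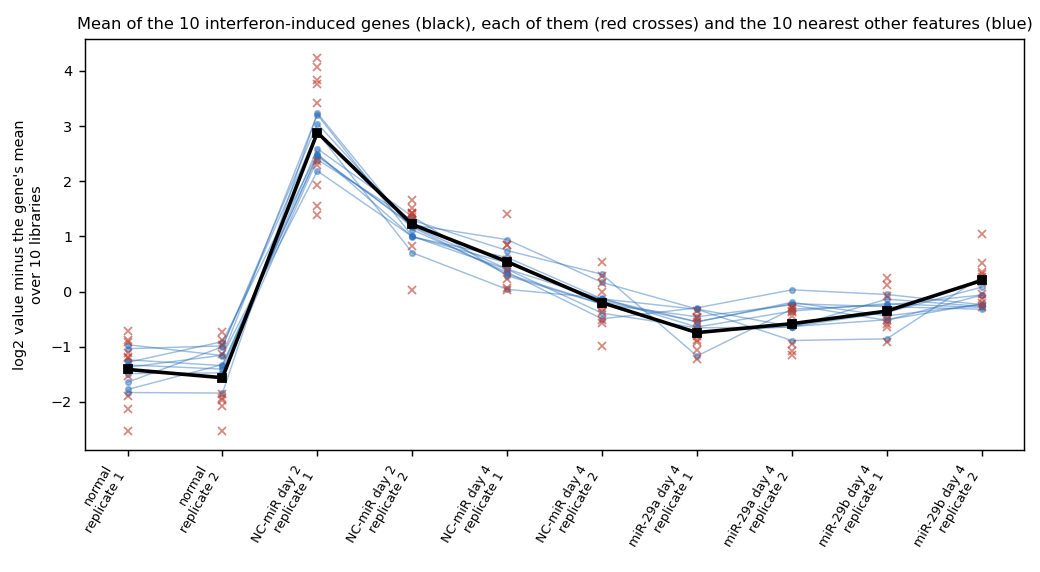
Log2 value minus each gene's mean over the 10 libraries (vertical axis) by library, for the mean of the 10 genes (black squares), each of them (red crosses) and the 10 nearest other features (blue). The mean of the 10 genes is highest in NC-miR_2d replicate 1, and the crosses there spread more widely than in the other libraries.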

How the data were processed

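RNA from mouse colorectum was extracted with the miRNeasy Mini kit and made into TruSeq stranded mRNA libraries, per the labels' protocols. Per the submitters' processing notes, the build was mm10 and the tools were Cuffnorm 2.2.1, SAMtools 0.1.19, TopHat2 2.0.13 and Bowtie2 2.2.3. Their settings are not given in the sources used here. The authors' deposited value column carries the heading FPKM, but its entries are log2 values relative to a baseline for each gene, since most are near 0 and many are negative. In each library 9322 features hold 1 constant, between -0.04 and 0.03. The floor of a feature was its lowest value, after subtraction of that constant, where 2 or more libraries shared it within 5e-05. How high that floor was in FPKM is unknown here.

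The values were used as deposited by the authors, without further normalization. limma 3.58.1 in R 4.3.3 fitted 5 group means to all 10 libraries (5 residual and 3.26 prior degrees of freedom) for the 13051 features with at least 1 group in which neither library was at the floor. The median standard error was 0.18. All p are 2-sided, adjusted by Benjamini-Hochberg over these features, and called under 0.05. An exact permutation of 2 against 2 libraries cannot go below p = 0.333, so none is given. Summaries used Python 3.11.15. The genes, the lists of pathway genes and markers, and the rule for naming genes (all 10 genes, the 8 family members and the 4 genes of each pathway list with the smallest p on day 2, a few fixed regulators, and the 10 nearest features) were chosen with earlier results of these data known. Some pathway genes are counted in their lists and not reported here individually.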

Additional observations from a re-analysis of the deposited data

Results flagged for a closer look

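In 2 of the 10 genes the miR-29 groups lay on opposite sides of the mean of NC-miR_4d in every library. The share of all tested features split in this way was not computed, so the count is not a result about these genes. Mx1 was at -0.65 and -0.52 in the 29a_4d libraries and at 0.09 and 0.53 in the 29b_4d libraries, a difference of -0.90 ± 1.06 between the groups. Ifitm3 was at -0.21 and -0.19 in 29a_4d and at 0.09 and 0.52 in 29b_4d, a difference of -0.51 ± 0.23. Neither difference was called by limma over all features (adjusted p = 0.845 for Mx1 and 0.675 for Ifitm3). The NC-miR_4d libraries themselves were 2.61-fold apart for Mx1 and 1.32-fold apart for Ifitm3.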

How the results depend on the processing

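The differences of the 10 genes moved by less than the spread between replicates in 1228 of 1280 refits, moved further in 52, and none that was called changed sign. Many of these refits could not move a difference, so the 1228 is no measure of stability. The no-filter, robust, 4-library and replicate-block fits leave the group differences as they were. So does leaving out a library of a group that is not compared. With no filter on low values, limma called 28 features on day 2 and 22 on day 4 of NC-miR against normal, 1 in each comparison of miR-29a or miR-29b with NC-miR_4d, 14 for 29a_4d and 29 for 29b_4d against normal, with 2 of the 10 genes on day 2, 0 on day 4 and 0 in 29b_4d. In fits to the 4 libraries compared, it called 26 and 20 features for NC-miR_2d and NC-miR_4d against normal, 2 and 3 for miR-29a and miR-29b against NC-miR_4d, 2 between the miR-29 groups, and 24 and 13 for 29a_4d and 29b_4d against normal, with 3, 1, 2 and 0 of the 10 genes in the comparisons with normal, in the order NC-miR_2d, NC-miR_4d, 29a_4d and 29b_4d. The robust option left 1 feature between the NC-miR days. Centring the libraries or subtracting their constants changed no count by more than 1.5 times. The cause of these changes was not tested, beyond the larger number of features tested or the smaller number of libraries fitted.

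With the replicate number as a block (the replicate block), 30 features and 0 of the 10 genes were called for NC-miR_4d and 35 features for 29b_4d against normal, and the other counts stayed within 1.5 times. The numbers were not used as pairs in the main fit. The correlations of same-numbered deviations over 10 pairs of groups ran from -0.24 to 0.11, with 1 above 0.1. Taken over all features, they cannot show whether some libraries or genes were paired.

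Leaving out each library in turn, the features called ranged from 16 to 273 (NC-miR_2d against normal), 6 to 82 (NC-miR_4d against normal), 0 to 94 (NC-miR_4d against NC-miR_2d), 0 to 3 (29a_4d against NC-miR_4d), 0 to 4 (29b_4d against NC-miR_4d), 0 to 1 (between the miR-29 groups), 8 to 42 (29a_4d against normal) and 5 to 60 (29b_4d against normal). The number of the 10 genes called ranged from 2 to 10, 0 to 4 and 0 to 7 in the first 3 of these comparisons and from 0 to 2 for 29b_4d against normal. The median of the 10 genes ranged from 2.68 to 4.54 for NC-miR_2d against normal and from -2.48 to -1.03 for NC-miR_4d against NC-miR_2d. Among the other named genes, calls were lost in 134 and gained in 7 of 656 refits. These refits cover the changed settings above as well as the left-out libraries. A comparison with a single library left in a group assumes that it varies like the other groups. Depth is unknown, and values at the floor limit what Ifi44 and Mx2 can show.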
